A study of Homo sapiens with 6 samples.

Results

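The proteins of the mitochondrial ribosome are encoded by nuclear genes named MRPL for the large subunit and MRPS for the small subunit. All rows of the deposited gene expression table with such a name, a number and at most 1 further letter were taken, provided that their counts averaged 10 or more across the 6 libraries, and 78 of 78 genes with such a name passed. These 78 genes, of 50868 genes in the table and 15953 tested, held 49 large-subunit and 29 small-subunit genes by symbol. The cells were wild-type HEK-293T, a transformed line from human embryonic kidney. For 12 h they received either the solvent DMSO (3 libraries) or 10 µM nitidine chloride, a benzophenanthridine alkaloid found in plants (3 libraries). The labels do not say whether the 3 libraries of a group came from separate cultures, so p-values measure the spread between these libraries, which may be technical.

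Mitochondrial ribosomes sit at the inner membrane of the organelle and translate the mRNAs of the mitochondrial genome, which encode core subunits of the respiratory chain and of ATP synthase. Their RNAs come from the mitochondrial genome, while their proteins are made in the cytosol and imported. Some of the proteins have counterparts in bacterial ribosomes and the others are specific to mitochondria.

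The libraries held 12688093 to 16357992 counts. All 7 markers listed for the line (PAX2, NEFL, NEFM, VIM, KRT8, KRT18 and CDH2) were counted in each library, with summed levels of 1113 to 1402 CPM (counts scaled to a common library total with TMM factors) with the solvent and 1254 to 1530 CPM with the alkaloid. Most of the sum was VIM, at 653 to 1073 CPM, and PAX2 was at 4.61 to 7.40 CPM. CDH2 was lower with the alkaloid (51.0, 54.9 and 50.5 CPM against 12.2, 13.2 and 12.4 CPM), as was NEFM (172, 181 and 162 CPM against 114, 123 and 120 CPM). NEFL, KRT8 and KRT18 were higher in each nitidine chloride library than in any DMSO library, and the groups of PAX2 and VIM overlapped. Of the markers of blood, CD3E was at 0 in each library and PTPRC reached at most 0.0634 CPM, and the 4 blood markers summed to 1.91 to 2.71 CPM and 3.09 to 3.80 CPM, in the same order. The 2 liver markers summed to at most 0.349 CPM. The 3 fibroblast markers, mostly COL1A1, summed to 32.2 to 36.5 CPM in DMSO and 52.9 to 59.6 CPM after nitidine chloride, and their part in the results was not tested.

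The promoters of these genes are DNA that the members could share, and they were searched for short motifs. RefSeq promoters (assembly GRCh38.p14, 250 bases before to 50 bases after the gene start) were matched for 69 of the 78 genes. The letters AAGATGG, part of the motif of the factor YY1, were present on either strand in 23 of the 69 (33.3%), against 6.1% of all 27305 promoters and 6.4% of 15842 promoters of protein-coding genes. The letters CTTCCGG, bound by ETS family factors, were present in 29 of 69 (42.0%), against 10.7% and 14.2%. The letters GCATGCG, part of the motif of NRF1, a regulator of mitochondrial genes, were present in 7 (10.1%), against 4.1% and 5.1%, and CCAAT, the letters of NF-Y, in 20 (29%), against 35.7% and 36.4%. Motifs were searched separately, and matches of different motifs overlapped in 0 of the 69 promoters. Large and small subunit did not stand apart in the YY1 letters, with 14 of 42 and 9 of 27 promoters, 33.3% of each, nor by much in the ETS letters, with 40.5% and 44.4%.

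Of the 24 matches of the YY1 letters, 16 began after the gene start, 20 lay on the strand of the gene, and in 12 the ATG inside the letters was an annotated start codon of the gene. The longer form AAGATGGCGGC made up 41.7% of the matches in these promoters and 14.7% of 1709 matches in all promoters. Windows of 30 bases are shown for each match in a gene that changed after nitidine chloride, to let the flanking bases be compared. They are written 5′ to 3′ on the strand of the motif, which is the strand of the gene except for MRPL32, with the searched letters in capitals. The first 8 genes were higher after nitidine chloride and MRPS27 was lower.
MRPL38 (chr17:75904857-75904886): ccggagggAAGATGGcggcgccctggtggc
MRPL46 (chr15:88467359-88467388): gagaacgaAAGATGGcggcgcccgtaaggc
MRPS10 (chr6:42217831-42217860): ggaccggcAAGATGGcggcgcggacagcgt
MRPS18B (chr6:30617855-30617884): cgtacgtcAAGATGGcggcgtctgtattaa
MRPS30 (chr5:44808952-44808981): cgcgggcaAAGATGGcggcggccaggtgtt
MRPS24 (chr7:43869477-43869506): cttggcccAAGATGGcggcctccgtgtgca
MRPL32 (chr7:42932140-42932169): ttcgggtaAAGATGGcggagcgcgggtaca
MRPL52 (chr14:22829781-22829810): gatgacccAAGATGGcggagccgtgattga
MRPL52, the other match (chr14:22829815-22829844): ccagattcAAGATGGcgacttcctgcttcc
MRPS27 (chr5:72320203-72320232): tacgctccAAGATGGctgcctccatagtgc
The capitals are followed by the bases cggc in MRPL38, MRPL46, MRPS10, MRPS18B, MRPS30 and MRPS24, and by other bases in MRPL32, MRPL52 and MRPS27. The YY1 letters were present in 8 of the 19 matched genes that were higher after nitidine chloride, in 1 of 7 that were lower and in 14 of 43 that did not pass the test. For the ETS letters these numbers were 8 of 19, 2 of 7 and 19 of 43. MRPL58 was the large-subunit gene with the highest fold change among those that passed the test. The 200 bases before its start hold the ETS letters or their reverse complement 2 times, shown in capitals (chr17:75012470-75012669, plus strand, the strand of the gene).
MRPL58: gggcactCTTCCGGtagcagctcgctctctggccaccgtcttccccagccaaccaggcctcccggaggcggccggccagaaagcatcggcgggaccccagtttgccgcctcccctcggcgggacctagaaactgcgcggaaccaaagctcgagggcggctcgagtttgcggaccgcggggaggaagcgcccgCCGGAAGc
A match of letters is a description of the sequence and was not tested as a site.

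After nitidine chloride, 21 of the 78 genes were higher, 9 were lower and 48 did not pass the test (edgeR's quasi-likelihood test, Benjamini-Hochberg adjusted p under 0.05 across all genes). The shares called were 26.9% higher and 11.5% lower, against a background of 24.7% higher and 27.0% lower among all 15953 tested genes, of which 51.7% changed. The share that rose was thus near the background, and the share that fell was below it. Changes were mostly small, with quartiles of the log2 fold change at -0.08 and 0.35 for the 78 genes. For all tested genes the quartiles were -0.46 and 0.37. The medians were 0.13 for the 78 genes and 0.01 for all tested genes. Of the 78, 0 rose by at least 2-fold, while MRPS28 and MRPS27 fell by at least 2-fold. Of all tested genes 2481 changed by at least 2-fold, 617 of them upward. With scaling by library size alone, which moved the median of all tested genes from 0.01 to 0.12, 36 of the 78 were higher and 8 lower, so that those higher made up 81.8% of the genes that changed, where TMM scaling gave 70.0%. Among all tested genes the same share was 57.9% against 47.7%. Directions are given on the TMM scale, and in these bulk samples fewer cells of a type and less RNA per cell cannot be told apart.

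**Figure D1:**
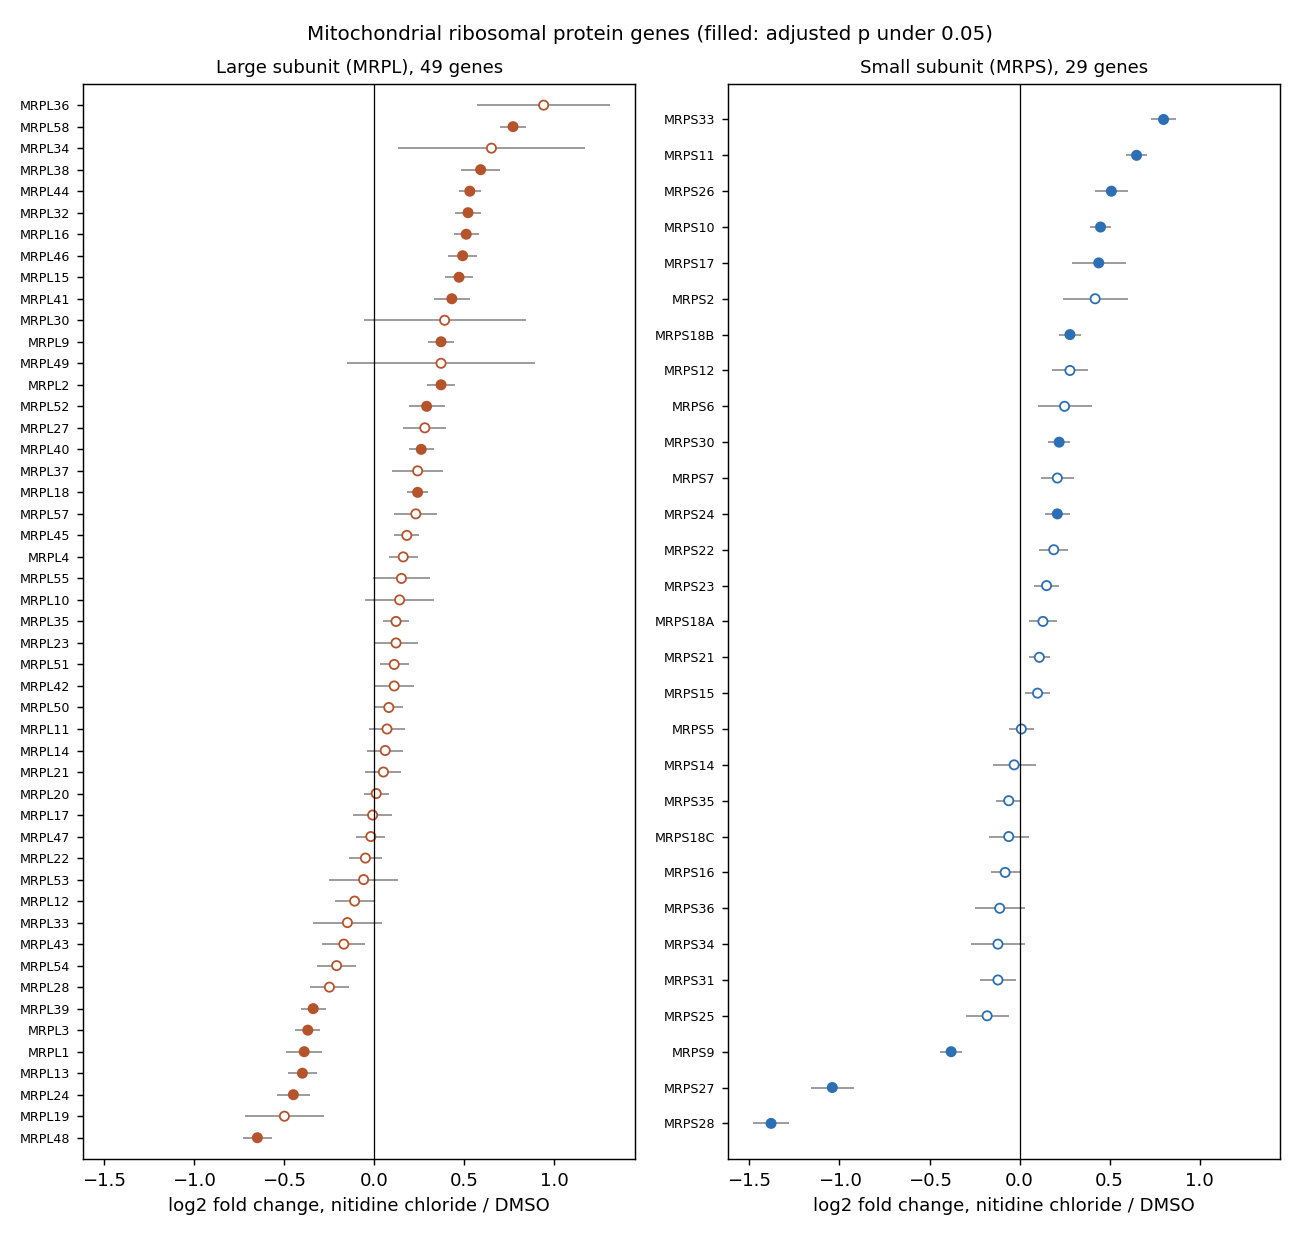
Log2 fold change (x axis) of each mitochondrial ribosomal protein gene after nitidine chloride against DMSO, 49 large-subunit genes at the left and 29 small-subunit genes at the right; points are estimates over 3 libraries per group, bars are standard errors, and filled points passed an adjusted p of 0.05. Large-subunit values run from -0.65 to 0.94 and small-subunit values from -1.38 to 0.80, with 13 and 8 genes higher and 6 and 3 lower.

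The 78 genes together took 0.482%, 0.463% and 0.474% of the counts in DMSO replicates 1, 2 and 3, and 0.553%, 0.558% and 0.546% in nitidine chloride replicates 1, 2 and 3. The groups did not overlap in this share, which is not TMM scaled. In nitidine chloride replicate 1, 43 of the 78 genes lay above and 15 below all 3 DMSO libraries. In replicate 2 these numbers were 44 and 19, and in replicate 3 they were 35 and 23. The median log2 difference from the DMSO mean was 0.12, 0.20 and 0.08 in the 3 libraries. Groups did not overlap for 26 genes that were higher and 10 that were lower, 46.2% of the 78 against a background of 60.7% (29.7% higher and 31.0% lower).

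The shares called and the medians of both subunits lay close together. Of the 49 large-subunit genes, 13 were higher (26.5%), 6 lower (12.2%) and 30 did not pass, with a median log2 fold change of 0.12. Of the 29 small-subunit genes, 8 were higher (27.6%), 3 lower (10.3%) and 18 did not pass, with a median of 0.13. Without DMSO replicate 3 the number of small-subunit genes that were higher was 5. The symbols do not fully follow the structure: the proteins of MRPS30 and MRPS18A sit in the large subunit of the human mitochondrial ribosome, and that of MRPS36 is now assigned to a dehydrogenase complex. Grouped by structure, 14 of 51 large-subunit genes were higher and 6 lower, and 7 of 26 small-subunit genes were higher and 3 lower, with medians of 0.13 and 0.13. The summed level of the large-subunit genes was 3024, 2884 and 2987 CPM in DMSO and 3204, 3283 and 3163 CPM after nitidine chloride. That of the small-subunit genes was 2006, 1907 and 1936 CPM in DMSO and 2083, 2218 and 2049 CPM after nitidine chloride. Both sums were higher in each nitidine chloride library than in any DMSO library. Their ratio, large to small, was 1.507, 1.512 and 1.543 in the DMSO libraries, which overlapped with 1.538, 1.480 and 1.544 in the nitidine chloride libraries. No p is given for a sum or median over these genes.

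Of the large-subunit genes that rose, MRPL58, which encodes a peptidyl-tRNA hydrolase built into the subunit, had the highest fold change. It was at 33.3, 34.6 and 32.7 CPM in DMSO and at 56.7, 58.2 and 56.4 CPM after nitidine chloride. The groups lay far apart, with a log2 fold change of 0.77 ± 0.07 (SE) and an edgeR adjusted p of 5.97e-05. MRPL38, a protein of the central protuberance, the knob of the large subunit that faces the small one, was at 58.7, 54.5 and 61.9 CPM in DMSO and at 81.5, 102 and 79.4 CPM after nitidine chloride (0.59 ± 0.11). Nitidine chloride replicate 2 was the highest library, and the groups did not overlap. MRPL38 shares its strand and span with the counted gene AC087289.3. MRPL44, a protein with a ribonuclease III-like fold near the peptide exit, rose from 62.7, 63.9 and 63.8 CPM to 89.7, 95.6 and 89.5 CPM (0.53 ± 0.06). MRPL32, whose precursor is cleaved by a protease of the inner membrane, rose from 51.0, 53.8 and 48.5 CPM to 74.6, 70.7 and 73.6 CPM (0.52 ± 0.07). The 3 libraries of each group lay close together for both genes. The span of MRPL32 overlaps PSMA2 by 24 bp. MRPL16, which has a bacterial counterpart near the peptidyl transferase centre, rose from 85.2, 84.0 and 81.1 CPM to 120, 126 and 111 CPM (0.51 ± 0.07).

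MRPL46 and MRPS11 are neighbours on chromosome 15 and are read in opposite directions from starts 34 bp apart, and they were the only pair among the 78 with starts within 1 kb of each other. MRPL46 (ENSG00000259494, minus strand, chr15:88459476-88467419), another protein of the central protuberance, was at 26.2, 28.4 and 28.7 CPM in DMSO and at 40.0, 37.0 and 40.3 CPM after nitidine chloride. MRPS11 (ENSG00000181991, plus strand, chr15:88467453-88480773), a small-subunit protein with a bacterial counterpart, was at 42.6, 42.7 and 41.4 CPM in DMSO and at 64.9, 68.3 and 65.8 CPM after nitidine chloride. Both rose with separate groups, by a log2 fold change of 0.49 ± 0.08 and of 0.65 ± 0.06 (edgeR adjusted p = 0.00160 and 1.06e-04). A start of another tested gene on the other strand within 1 kb was found for 31 of the 78 genes (39.7%), against 20.5% of all tested genes. In the 31 resulting pairs of 1 of these genes and its partner, the fold changes had the same sign in 17, and both passed the test in 4, of which 3 in the same direction. The others of these 3 pairs were MRPL52 with SLC7A7 (0.29 and 1.72) and MRPL13 with MTBP (-0.40 and -0.62). The groups of MRPL52 overlapped (edgeR adjusted p = 0.0420). SLC7A7 was at low levels, with 0.411, 0.498 and 0.698 CPM in DMSO and 1.68, 1.83 and 1.94 CPM after nitidine chloride. MRPS18B rose and PPP1R10 fell (0.28 and -0.59), and these spans overlap, as do those of 12 of the 31 pairs. There, reads of both genes cannot be told apart without a strand setting. Of all tested genes 51.7% passed the test. Pairs of other tested genes were not counted, so whether these numbers differ from those of all such pairs was not tested.

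Among the small-subunit genes, MRPS33, a protein specific to mitochondria in the head of the subunit, had the highest fold change. Its levels were 65.7, 60.9 and 63.8 CPM in DMSO and 117, 112 and 102 CPM after nitidine chloride, with separate groups and a log2 fold change of 0.80 ± 0.07 (edgeR adjusted p = 6.51e-05). MRPS26, also specific to mitochondria, rose from 106, 90.5 and 105 CPM to 139, 158 and 132 CPM (0.51 ± 0.09). MRPS10, which has a bacterial counterpart in the head, rose from 76.3, 79.4 and 76.0 CPM to 107, 110 and 98.9 CPM (0.45 ± 0.06). Both had separate groups. MRPS17 was at 32.9, 27.4 and 26.9 CPM and at 39.8, 46.3 and 32.1 CPM, so that its groups overlapped, and passed with 0.44 ± 0.15 (edgeR adjusted p = 0.0379). It shares its strand and span with NIPSNAP2, and its adjusted p was 0.0849 to 0.112 without DMSO replicate 2, DMSO replicate 3, nitidine chloride replicate 1 or nitidine chloride replicate 2, each left out alone.

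**Figure D2:**
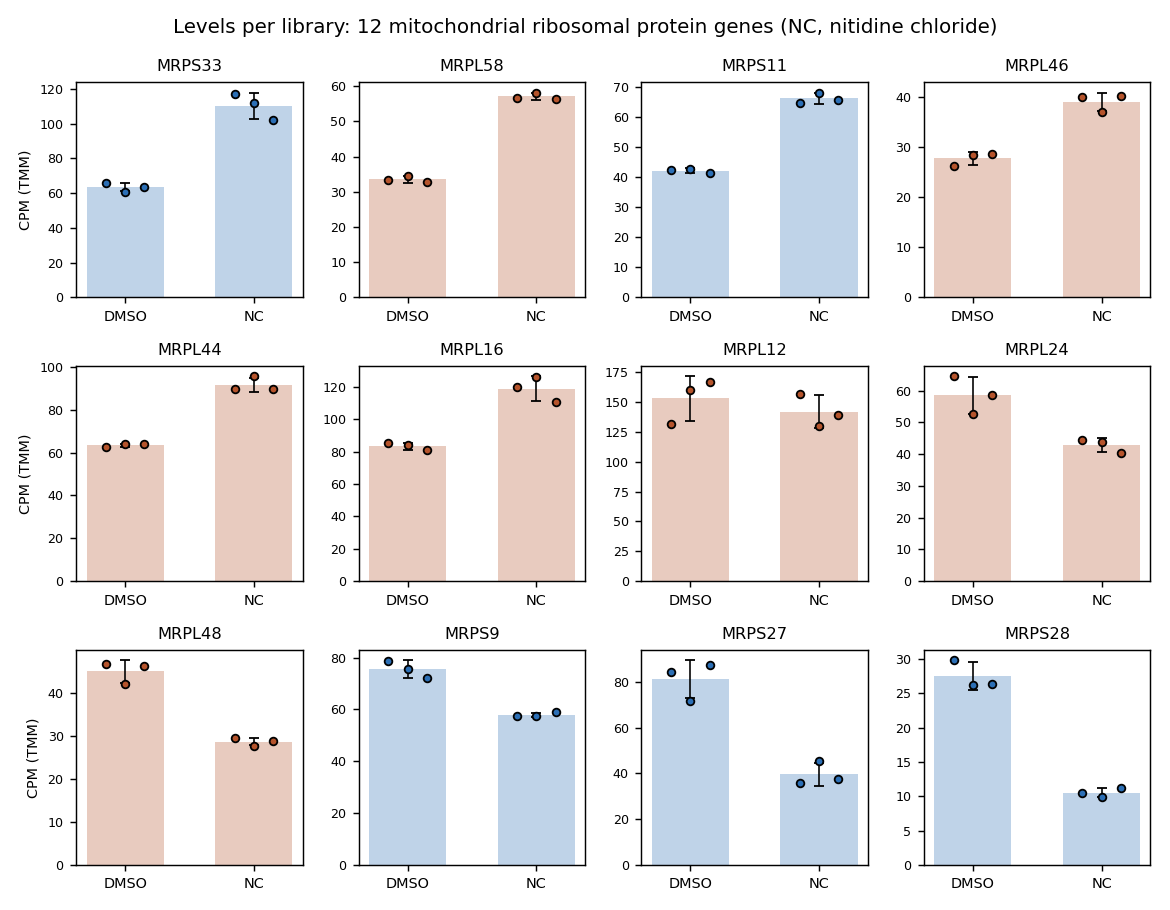
CPM after TMM scaling (y axis, from 0) of 12 genes in DMSO and in nitidine chloride (NC); points are the 3 libraries, bars the mean and lines the SD, orange for the large and blue for the small subunit. MRPS33 and MRPL58 are the highest risers, MRPL12 has overlapping groups, and MRPS27 and MRPS28 have the lowest fold changes.

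MRPS28 and MRPS27 had the largest changes of the 78 genes, while the other 7 genes that fell had log2 fold changes from -0.65 to -0.34. MRPS28, the mitochondrial relative of a bacterial small-subunit protein, was at 29.8, 26.2 and 26.4 CPM in DMSO and at 10.4, 9.92 and 11.2 CPM after nitidine chloride. Each nitidine chloride library was below each DMSO library, with a log2 fold change of -1.38 ± 0.10 (edgeR adjusted p = 2.28e-05). MRPS28 shares its strand and span with the counted gene AC036214.2, and the part of that gene in these counts was not tested. MRPS27, a pentatricopeptide repeat protein of the small subunit, was at 84.4, 71.8 and 87.5 CPM and at 35.7, 45.5 and 37.5 CPM, a log2 fold change of -1.04 ± 0.12 (edgeR adjusted p = 2.25e-04). Its span overlaps PTCD2 by 280 bp, and PTCD2 had 0.11 ± 0.10. MRPS9, of the head, fell from 78.9, 75.8 and 72.0 CPM to 57.5, 57.4 and 58.9 CPM (-0.38 ± 0.06). It overlaps 1 gene with counts, whose mean was below 10.

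In the large subunit, MRPL48, of the central protuberance, fell from 46.7, 41.9 and 46.1 CPM to 29.4, 27.7 and 28.8 CPM (-0.65 ± 0.08, edgeR adjusted p = 3.34e-04). MRPL24, a protein near the exit of the peptide tunnel, fell from 64.5, 52.8 and 58.5 CPM to 44.3, 43.8 and 40.3 CPM (-0.45 ± 0.09). MRPL13 fell with -0.40 ± 0.08, MRPL3 with -0.37 ± 0.07 and MRPL39 with -0.34 ± 0.07, all with separate groups. MRPL1 was at 24.6, 28.3 and 27.4 CPM and at 22.2, 18.4 and 20.6 CPM (-0.39 ± 0.10, edgeR adjusted p = 0.0148). Its adjusted p was 0.0748 without DMSO replicate 2, 0.0505 without DMSO replicate 3 and 0.0586 with scaling by library size alone.

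The genes that rose and those that fell differed in genomic span, which is the length of the locus with its introns as the table lists it. All 21 genes that rose spanned less than 20 kb, as did 1 of the 9 that fell, MRPL24 (4.288 kb). Of the 56 genes under 20 kb, 21 were higher and 1 lower, 37.5% and 1.79%, where 35.8% and 8.80% of the 6758 tested genes under 20 kb were higher and lower. Of the 22 genes of 20 kb or more, 0 were higher and 8 lower (36.4%), where 16.5% and 40.4% of 9195 tested genes were. The boundary at 20 kb was chosen after the values were seen. Medians were 0.22 and -0.14 for these genes, close to 0.22 and -0.18 for all tested genes on the same sides of the boundary. Both subunits showed the same order. Large-subunit medians were 0.24 below and -0.15 above the boundary, and small-subunit medians were 0.21 and -0.12. By the span of 1 principal GENCODE transcript per gene, 21 of 63 genes under 20 kb were higher and 1 lower (33.3% and 1.59%, against 45% and 5.91% of all tested genes with such a transcript). Of the 15 genes of 20 kb or more by that measure, 0 were higher and 8 lower (53.3%, against 44.4%). The share that fell among the longer genes was thus below the share of all genes by one measure of span and above it by the other.

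Of the 21 genes below 5 kb, 7 rose and 1 fell, where 23.4% and 12.3% of all tested genes of that span did. Of the 14 genes of 5 to 10 kb, 7 rose and 0 fell (44.0% and 6.69% of all), and of the 21 of 10 to 20 kb, 7 rose and 0 fell (44.2% and 6.30% of all). Of the 12 genes of 20 to 50 kb, 0 rose and 2 fell, MRPL3 and MRPL39, where 30.8% and 12.2% of all tested genes did. In the classes of longer genes, 6 genes spanned 50 to 100 kb, of which 4 fell (MRPL13, MRPL1, MRPS9 and MRPL48) and 0 rose, where 39.8% of all tested genes of that span were lower and 10.5% higher. Both genes of 100 to 200 kb, MRPS27 (101.2 kb) and MRPS28 (111.6 kb), fell, with log2 fold changes of -1.04 and -1.38, where 75% of all tested genes of that class were lower and 2.65% higher, with a median of -0.84. The 2 genes listed at over 200 kb did not pass. MRPS22 (351.4 kb) had 0.19 ± 0.08 and MRPL33 (216.4 kb) had -0.15 ± 0.19, where 89.3% of tested genes of that span were lower and 1.24% higher, with a median of -2.0. Their principal transcripts span only 13.0 kb and 8.03 kb. Across the 78 genes, Pearson's r between log2 fold change and log10 of the span was -0.44 and Spearman's rho was -0.38. Across 13231 tested genes with a principal transcript these were -0.61 and -0.62. Genes are not independent replicates, and all of these values share the same 6 libraries.

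**Figure D3:**
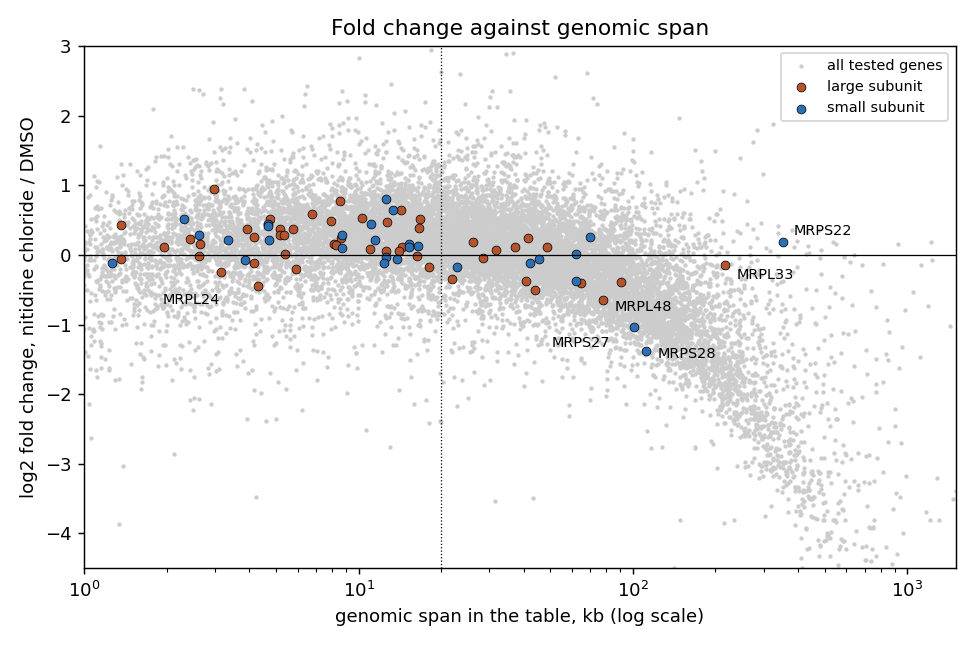
Log2 fold change after nitidine chloride (y axis) against genomic span in kb (x axis, log scale) for all tested genes within the axes (grey) and the mitochondrial ribosomal protein genes of the large (orange) and small (blue) subunit; the dotted line marks 20 kb. Most of the family lies left of the line, where medians were 0.22, and MRPS27 and MRPS28 lie lowest, while MRPS22 and MRPL33 lie above the bulk of genes listed at similar span.

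By place in the ribosome, the central protuberance held 6 genes that rose of 9: MRPL58, MRPL38, MRPL46, MRPL52, MRPL40 and MRPL18, with log2 fold changes from 0.24 to 0.77. That share, 66.7%, stands beside 24.7% of all tested genes and 44.0% of those spanning 5 to 10 kb, and at a threshold of 0.01 the number was 3. The groups of MRPL52 overlapped. MRPL48 fell, and MRPL27 (0.28 ± 0.12) and MRPL55 (0.15 ± 0.16) did not pass. The median span of these 9 genes was 6.77 kb. Of the 5 genes of the stalk that recruits translation factors (MRPL10, MRPL11, MRPL12, MRPL53 and MRPL54), 0 passed, with values from -0.21 to 0.14, and 1 was higher without DMSO replicate 3. MRPL12, which also binds the mitochondrial RNA polymerase, was at 132, 160 and 167 CPM in DMSO and at 157, 130 and 139 CPM after nitidine chloride, and its groups overlapped. Of 9 genes around the peptide exit, 1 rose (MRPL44), 2 fell (MRPL24 and MRPL39) and 6 did not pass, with 2 higher without nitidine chloride replicate 1. Of 9 genes of the head of the small subunit, 3 rose (MRPS33, MRPS10 and MRPS24), 1 fell (MRPS9) and 5 did not pass, which is 33.3% higher and 11.1% lower. MRPS24 passed near the threshold (0.21 ± 0.07, edgeR adjusted p = 0.0436) and shares its strand and span with the counted gene URGCP-MRPS24. Of 46 genes with a bacterial counterpart, 10 rose and 6 fell (21.7% and 13.0%, median 0.12), and of 31 specific to mitochondria, 11 rose and 3 fell (35.5% and 9.68%, median 0.18). All these shares are to be read against 24.7% higher and 27.0% lower among all tested genes, and against the shares by span given above.

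MRPS18A, MRPS18B and MRPS18C are paralogs, of which the proteins take different places in the ribosome. MRPS18B, a small-subunit protein, rose from 91.4, 89.6 and 89.4 CPM to 103, 116 and 109 CPM (0.28 ± 0.06, edgeR adjusted p = 0.00850). MRPS18A, placed in the large subunit, was at 49.8, 46.5 and 45.8 CPM and at 48.6, 53.8 and 52.8 CPM, with overlapping groups (0.13 ± 0.08, edgeR adjusted p = 0.192). It passed when only the library size was used for scaling (0.23, edgeR adjusted p = 0.0261). MRPS18C, which takes the place of the bacterial protein, was at 44.0, 38.6 and 40.6 CPM and at 38, 45 and 35 CPM (-0.06 ± 0.11, edgeR adjusted p = 0.674), and its direction turned with scaling by library size alone (0.04). The differences between the paralogs were not tested. MRPS30, the other gene with a small-subunit symbol and a large-subunit protein, rose from 71.8, 72.3 and 73.0 CPM to 81.1, 85.8 and 86.5 CPM (0.22 ± 0.06, edgeR adjusted p = 0.0142). Its adjusted p was 0.0541 without DMSO replicate 1 and 0.0505 without DMSO replicate 3. MRPS36 was at 18.6, 16.5 and 15.4 CPM and at 14, 18.3 and 14.5 CPM and did not pass (edgeR adjusted p = 0.546).

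For 4 genes the highest library was more than 2 times the lowest within a group, and none of them passed the test. MRPL36 was at 16.4, 8.04 and 7.43 CPM in DMSO and at 19.6, 12.8 and 28.3 CPM after nitidine chloride, with the highest fold change of the family and a large error (0.94 ± 0.37, edgeR adjusted p = 0.0680). MRPL34 was at 43.8, 16.8 and 16.1 CPM and at 23.7, 26.2 and 69.4 CPM. MRPL30 was at 34.6, 39.3 and 73.3 CPM and at 113, 38.6 and 42.1 CPM. In MRPL34 and MRPL36 DMSO replicate 1 and nitidine chloride replicate 3 were the high libraries, whereas in MRPL30 they were DMSO replicate 3 and nitidine chloride replicate 1. MRPL49 was at 41.2, 86.0 and 28.9 CPM and at 33.4, 53.3 and 115 CPM. MRPL49, MRPL34 and MRPL30 overlap other counted genes, FAU and SYVN1, ABHD8, and AC079447.1 and AC092587.1, in the same order, and MRPL36 overlaps none. MRPL19, with 113, 109 and 115 CPM in DMSO and 50.8, 88.8 and 99.3 CPM after nitidine chloride, had separate groups but did not pass (-0.50 ± 0.22, edgeR adjusted p = 0.0899). It too shares its strand with counted genes, AC005034.3 and AC005034.5. In all, 35 of the 78 genes overlap a gene with a mean of at least 10 counts, 13 of them on the same strand. Of 69 listed pseudogene copies, 4 had a mean of at least 10 counts (MRPL3P1, MRPL45P2, MRPS31P4 and MRPS31P5), so that counts of MRPL3, MRPL45 and MRPS31 may be split between copies.

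Levels between genes were compared per kb of the principal transcript. In DMSO the median was 36.4 CPM per kb for the large and 43.1 CPM per kb for the small subunit, and after nitidine chloride it was 43.6 and 48.7 CPM per kb. The highest levels in DMSO were those of MRPL12 (149 CPM per kb, from 128 to 162 in single libraries), MRPL37 (137, from 112 to 155) and MRPL20 (123, from 116 to 128). The ranges of MRPL12 and MRPL37 overlapped, as did those of MRPL37 and MRPL20, while the lowest MRPL12 library lay just above the highest MRPL20 library. MRPS34 (113 CPM per kb, from 102 to 121) was the highest of the small subunit. At the other end were MRPS11 with 11.6 CPM per kb and MRPL42 with 4.68 CPM per kb, the latter over a listed transcript of 15582 bases. These levels depend on the transcript chosen, since annotated ends differ in length.

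Other genes that act in mitochondrial translation moved in both directions, and their counts are to be read against 24.7% higher and 27.0% lower among all tested genes. Among tested genes these shares also differed by span, as given above. Of 5 proteins of the mitochondrial ribosome without an MRP name, CHCHD1 (0.35 ± 0.11) and GADD45GIP1 (0.28 ± 0.09) rose, and DAP3, a GTP-binding protein of the small subunit (-0.32 ± 0.09), and PTCD3, a pentatricopeptide repeat protein (-0.31 ± 0.05), fell. DAP3 was at 122, 117 and 115 CPM in DMSO and at 93.6, 84.6 and 106 CPM after nitidine chloride, with separate groups. The calls of CHCHD1, GADD45GIP1 and DAP3 were near the threshold. Without DMSO replicate 2, DMSO replicate 3 or nitidine chloride replicate 2, each left out alone, 0 of the 5 were higher. CHCHD1 did not pass without nitidine chloride replicate 1 either. PTCD3 kept its call at 0.05, and its highest value among the fits was an edgeR adjusted p of 0.0133 with the replicate block. DAP3 did not pass without DMSO replicate 1, DMSO replicate 2 or nitidine chloride replicate 1, each left out alone, nor with scaling by library size alone, with edgeR adjusted p from 0.0536 to 0.103 in these fits. Of 30 assembly factors, 12 rose and 5 fell (40.0% and 16.7%), with a median of 0.22. Their median span was 15.4 kb, and of all tested genes of 10 to 20 kb 44.2% were higher and 6.30% lower. NSUN4, an RNA methyltransferase, rose (0.91 ± 0.23), as did MTG2, a GTPase of the large subunit (0.80 ± 0.13). NSUN4 was at 22.3, 42.9 and 44.2 CPM in DMSO and at 66.5, 71.2 and 68.6 CPM after nitidine chloride, with DMSO replicate 1 the lowest library. METTL15, which methylates the small ribosomal RNA (-1.35 ± 0.33), and YBEY, an endoribonuclease (-0.56 ± 0.10), fell. METTL15 was at 19.7, 8.32 and 13.6 CPM in DMSO and at 3.98, 5.18 and 7.12 CPM after nitidine chloride. At a threshold of 0.01 NSUN4 and METTL15 did not pass. METTL15 spans 418.8 kb, and 89.3% of all tested genes of 200 kb or more were lower. YBEY spans 11.41 kb. Of 19 translation factors and partners, 4 rose and 6 fell (21.1% and 31.6%), with a median of -0.10. The number that rose was 2 without DMSO replicate 1 or without DMSO replicate 3. The median span of this list was 27.0 kb, and of all tested genes of 20 to 50 kb 30.8% were higher and 12.2% lower. TACO1, the activator of translation of a cytochrome c oxidase subunit (0.69 ± 0.08), and MTIF3, an initiation factor (0.56 ± 0.10), rose. LRPPRC, which stabilises mitochondrial mRNAs, fell from 493, 508 and 492 CPM to 270, 246 and 281 CPM (-0.91 ± 0.07), and MTRF1L, a release factor, fell with -1.04 ± 0.09. LRPPRC spans 109.5 kb, and most tested genes of 100 to 200 kb were lower, as given above, with a median of -0.84. MTRF1L spans 15.32 kb, and 6.30% of all tested genes of 10 to 20 kb were lower.

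Of 20 genes of mitochondrial transcription and RNA processing, 7 rose and 2 fell (35% and 10%), with a median of 0.10. Their median span was 19.8 kb, and of all tested genes of 10 to 20 kb 44.2% were higher and 6.30% lower. FASTKD3 (0.53 ± 0.11) and the helicase SUPV3L1 (0.40 ± 0.07) rose, and PNPT1, the exonuclease that works with SUPV3L1 (-0.48 ± 0.06), and PRORP, the nuclease of mitochondrial RNase P (-1.62 ± 0.13), fell. PNPT1 spans 59.65 kb and PRORP 155.8 kb. The median of all tested genes was -0.21 at 50 to 100 kb and -0.84 at 100 to 200 kb. Most tested genes of 100 to 200 kb were lower, as given above. Of the 13 mitochondrial genes whose mRNAs these ribosomes translate, 2 rose and 9 fell (15.4% and 69.2%), with a median of -0.37. The spans of MT-ATP8 and MT-ATP6 overlap, as do those of MT-ND4L and MT-ND4, and all of these genes fell. MT-ND5 fell from 2785, 2925 and 2827 CPM to 1838, 1826 and 1888 CPM (-0.62 ± 0.05). MT-ND4L fell with -0.63 ± 0.07, and MT-ND1 (0.27 ± 0.05) and MT-ND2 (0.19 ± 0.05) rose. MT-ND2 did not pass without DMSO replicate 1, DMSO replicate 3 or nitidine chloride replicate 3, each left out alone, with edgeR adjusted p from 0.0525 to 0.112. Of 79 genes for proteins of cytosolic ribosomes, 11 rose and 2 fell (13.9% and 2.53%, 16.5% changed), with a median of 0.06 and values from -0.61 to 0.47. Of all tested genes 51.7% changed, 24.7% higher and 27.0% lower. Of those below 5 kb 23.4% were higher and 12.3% lower, and of those of 5 to 10 kb 44.0% and 6.69%. The number that rose depended on single libraries, being 5 without DMSO replicate 2, 2 without DMSO replicate 3, 6 without nitidine chloride replicate 2 and 18 without nitidine chloride replicate 3, and it was 27 with library-size scaling. The number that fell was 1 to 3 in these fits. RPL28 (0.27) and RPS27 (0.47) were the highest of those that rose, and RPL3 (-0.61) and RPSA (-0.26) were those that fell. RPS27 did not pass without DMSO replicate 2, nitidine chloride replicate 1 or nitidine chloride replicate 2, and RPSA did not pass without DMSO replicate 1, DMSO replicate 3, nitidine chloride replicate 1 or nitidine chloride replicate 3, each left out alone. The 78 mitochondrial ribosomal protein genes ran from -1.38 to 0.94, with 38.5% changed. The median span was 5.33 kb for the cytosolic and 11.9 kb for the mitochondrial genes, and no test of the difference between lists was made.

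**Figure D4:**
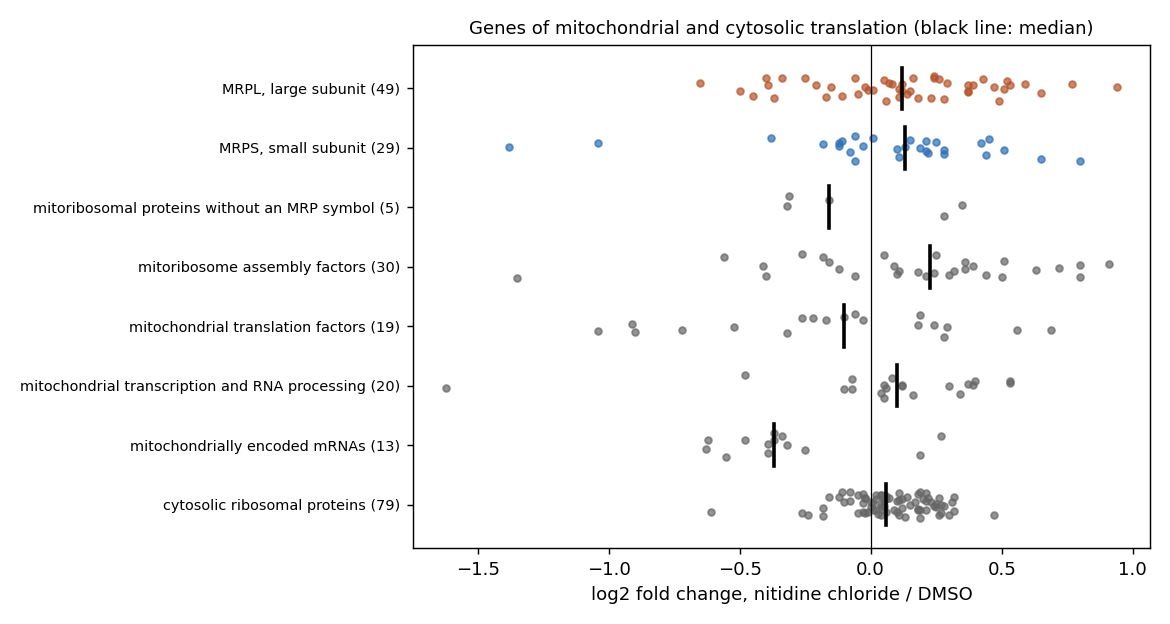
Log2 fold change after nitidine chloride (x axis) of single genes (points, spread at random in height) in 8 groups, with the number of genes in brackets and the median as a black line. The medians of both subunits lie at 0.12 and 0.13, that of the mitochondrially encoded mRNAs at -0.37, and the cytosolic ribosomal protein genes lie between -0.61 and 0.47.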

How the data were processed

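Raw read counts per gene were deposited by the authors, per the file headers, beside FPKM values, which the authors scaled to a gene length and to the library total. Per the submitters' processing notes, HISAT2 2.0.4 and StringTie 1.3.0 were among the tools. Which program counted the reads, with what strand setting, build and annotation, is not given in the sources used here. Positions of 77 of the 78 genes equalled those of GENCODE release 29 (GRCh38). The FPKM were not used for levels: the length behind them was 2.56 times the principal transcript in the median and exceeded the genomic span in 17 of the 78 genes.

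Genes averaging 10 or more counts were tested with edgeR 4.0.16 (R 4.3.3), TMM scaling, the quasi-likelihood test of nitidine chloride against DMSO and Benjamini-Hochberg adjustment over all 15953 genes, at 0.05. CPM were computed from the counts. SE is the log2 fold change over the root of the F statistic. The test was checked on simulated counts in which few genes changed, equally up and down. That check does not cover data in which as many genes change as here. The principal transcript of a gene is the GENCODE transcript with the best principal rank, then the best support level, then the shortest span. The members and lists were chosen with earlier results of these data known. Named genes were, per subunit, the 6 highest and the 6 lowest among those past the threshold, the MRPS18 genes, MRPS30, MRPS36 and 2 per list and direction. Others were chosen after their values were seen. The fits were repeated with DESeq2 1.42.0, a replicate block, scaling by library size, no filter, a minimum mean of 50 counts, single libraries left out, limma-voom (limma 3.58.1), a threshold of 0.01, no overlapped genes and subunits by structure. Use of the principal transcript's span was added after the data had been seen. Plots were drawn with matplotlib 3.10.9.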

Additional observations from a re-analysis of the deposited data

How the results depend on the processing

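With scaling by library size alone, 36 of the 78 genes were higher, 20 of the large and 16 of the small subunit, and the median log2 fold change was 0.23 for all 78 and for each subunit. At a threshold of 0.01, 5 small-subunit genes and 2616 of all tested genes were higher. Without the 41 genes overlapped by another counted gene, 11 were higher and 5 lower, with 7 of the large and 4 of the small subunit higher and 0 of the small subunit lower. Leaving out single libraries left between 5 (without DMSO replicate 3) and 9 small-subunit genes higher. The causes of these shifts were not tested, except that fewer genes enter without the overlapped ones. MRPS18C, which did not pass, ranged from -0.17 to 0.02 (without nitidine chloride replicate 3) when single libraries were left out and was 0.04 with library-size scaling. Replicate numbers did not pair the libraries, with correlations of 0.001, -0.055 and 0.04 between same-numbered libraries, and with the replicate block 19 of the 78 genes were higher and 9 lower. With the block, 5 cytosolic ribosomal protein genes, 2 translation factors and 1 mitochondrially encoded mRNA were higher. Of the values of the 25 named mitochondrial ribosomal protein genes under the alternatives, 310 kept their direction and their side of the threshold, 12 lost the call, 1 gained it and 2 reversed. Of those of the 24 genes named from the other lists, 278 kept both and 34 lost the call. The 3 libraries per group limit the precision of each value.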
